A study of Homo sapiens with 16 samples.

Results

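The 10 genes described here encode the best known members of the BCL2 family, the proteins that decide at the mitochondrial outer membrane whether a cell survives or dies by apoptosis. They were chosen by name: every gene symbol in the table of 39007 that equals BCL2, BCL2L1, MCL1, BAX, BAK1, BID, BCL2L11, PMAIP1, BBC3 or BMF was taken, and all 10 were found once. All of them lay above the mean of 1 CPM (read counts scaled to the same total in every library) over the libraries that was required for a test, as did 13249 genes in all. The 16 RNA libraries come from the GRC1 cell line and are spread evenly over 4 phases. Parental phase P0 was the T24 bladder cancer line before selection. The early (P3), intermediate (P7) and late (P15) phases were cells that had survived 3, 7 and 15 rounds of exposure to gemcitabine, a deoxycytidine analog that blocks DNA synthesis. All 4 phases were kept in the same serum-supplemented medium, and between rounds the surviving cells were allowed to form colonies and proliferate without the drug. The resistant phases are therefore successive stages of 1 selected line, and nothing in the labels says that the 4 libraries of a phase came from separate cultures, so the p-values below measure the spread between these libraries, which may be technical. The labels give no time between the last exposure and the preparation of RNA. Every sample name carries the code NT, which the labels do not explain. The names also end in a number, and some of these numbers recur in different phases. The libraries may thus have come from more than 1 sequencing run, and any part of this in the differences below was not tested.

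BCL2 family proteins fall into 3 roles. Survival proteins such as BCL2, BCL-XL (from BCL2L1) and MCL1 bind and restrain the effectors BAX and BAK (from BAK1), which otherwise assemble into pores in the outer membrane and release cytochrome c. BH3-only proteins report damage or lost survival signals to them: BID links death receptors to mitochondria after cleavage, BIM (from BCL2L11) and BMF respond to loss of growth factors or attachment, and NOXA (from PMAIP1) and PUMA (from BBC3) are classical targets of p53. Much of the control of these proteins is by binding, cleavage and degradation, none of which is measured by RNA sequencing.

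The stretches directly before the RefSeq transcription start are shown for BBC3, BMF, PMAIP1 and BAX. Of the members, BBC3 rose most in P15, BMF fell most, PMAIP1 rose most in P3 and BAX is an effector that moved little. Each is the 250 bases upstream of the RefSeq start on the strand of the gene, written 5′ to 3′, in GRCh38.p14. BBC3 lies at chr19:47232668-47232917 on the minus strand, BMF at chr15:40108880-40109129 on the minus strand, PMAIP1 at chr18:59899746-59899995 on the plus strand and BAX at chr19:48954625-48954874 on the plus strand. Capitals mark matches to the motifs searched other than the GC box. In the GENCODE 44 annotation, BBC3, BMF and BAX begin further upstream, so a part of each of these stretches lies inside the gene.
BBC3: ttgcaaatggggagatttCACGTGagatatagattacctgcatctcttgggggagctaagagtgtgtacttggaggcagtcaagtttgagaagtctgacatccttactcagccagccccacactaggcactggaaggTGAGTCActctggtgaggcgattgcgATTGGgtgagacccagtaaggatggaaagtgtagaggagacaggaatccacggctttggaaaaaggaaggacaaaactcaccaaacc
BMF: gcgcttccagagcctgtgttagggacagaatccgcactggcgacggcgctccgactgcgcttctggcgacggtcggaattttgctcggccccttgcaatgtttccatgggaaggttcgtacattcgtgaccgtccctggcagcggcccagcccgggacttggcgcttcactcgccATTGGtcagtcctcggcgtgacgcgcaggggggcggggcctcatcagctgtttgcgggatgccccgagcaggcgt
PMAIP1: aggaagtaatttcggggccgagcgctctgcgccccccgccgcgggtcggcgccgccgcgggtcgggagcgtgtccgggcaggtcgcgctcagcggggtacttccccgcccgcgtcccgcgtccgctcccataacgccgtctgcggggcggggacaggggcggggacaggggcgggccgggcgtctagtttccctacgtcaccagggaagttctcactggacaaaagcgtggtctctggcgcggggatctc
BAX: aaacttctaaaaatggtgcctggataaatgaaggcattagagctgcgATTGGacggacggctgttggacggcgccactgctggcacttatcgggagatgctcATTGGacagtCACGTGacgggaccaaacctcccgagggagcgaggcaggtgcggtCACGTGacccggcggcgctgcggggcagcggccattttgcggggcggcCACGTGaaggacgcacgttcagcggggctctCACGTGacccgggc

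These 4 stretches differed in composition. The G and C content was 49.2% for BBC3, 62.8% for BAX, 65.2% for BMF and 72.8% for PMAIP1, beside a median of 58.0% and quartiles of 46.0% and 67.6% over the 27305 promoters in the reference. A set of 10 motifs was searched on both strands in the 9 members that the promoter table holds, and MCL1 is not among them. The AP-1 motif TGANTCA was found in 1 of the 9, BBC3, as TGAGTCA from 113 to 107 bases before the start, and in 6.6% of all promoters. The E-box CACGTG was found once in BBC3, from 232 to 227 bases before the start, and 4 times in BAX, where the matches began 138, 93, 45 and 14 bases before the start, while 6.49% of all promoters held at least 1. The CCAAT box (CCAAT, here read on the other strand as ATTGG) was present in BBC3, BMF, BAX, BAK1 and BCL2L11, 5 of the 9, beside 33.0% of all promoters. The GC box GGGCGG was present in 6 of the 9, PMAIP1, BMF, BAX, BAK1, BID and BCL2L11, beside 42.3% of all promoters, and PMAIP1 held 4 matches and no other motif of the set. The TATA box TATAAA was found in BCL2L1 alone, with 2 matches, beside 11.1% of all promoters. The p53 motif searched is only a part of a full p53 site, and it was found in BAK1 alone, beside 5.53% of all promoters. Full p53 sites were not searched for. The match in BAK1 shares 1 base with a GC box. The CRE motif TGACGTCA, the C/EBP-ATF motif TGATGNAAT, the ISRE core motif and the ETS core CCGGAAG were in none of the 9, beside 1.77%, 0.916%, 3.07% and 8.82% of all promoters. A match is a run of letters in this window and does not show that a factor binds there. By GENCODE 44, the stretches searched for BCL2, BID and BCL2L11 lie wholly inside the genes.

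The values are log2(CPM + 1), so differences and folds between phases are on that scale, which understates the change of genes with few counts. Library totals, read from the steps between low values, ran from 33.8 to 50.0 M counts, and 1 count was worth 0.02 to 0.0296 CPM. Within a phase, the median absolute difference between 2 libraries was 0.06 to 0.1, and between phases it was 0.18 to 0.58. Ribosomal protein genes took 5.74% to 6.03% of the counts in P0, 4.4% to 4.5% in P3, 4.64% to 4.73% in P7 and 7.24% to 7.87% in P15. Of 14 bladder epithelial markers, 7 were above 1 CPM in P0, among them KRT7, KRT8, KRT18 and KRT19, whereas KRT5 and KRT20 were listed at 0 and UPK1B, UPK3A and CDH1 lay far below 1 CPM. Their summed level was 2180 to 2250 CPM in P0, 2420 to 2550 in P3, 1770 to 1920 in P7, against 695 to 772 in P15, and of the 7 tested, 6 were lower and 1 (KRT18) was higher in P15 than in P0. Markers of blood cells, endothelium and fibroblasts summed to at most 8.5, 7.95 and 28.8 CPM in any library, with the fibroblast sum at 7.03 to 8.17 CPM in P0 and 25.6 to 28.8 CPM in P15, and PTPRC and HBB were at 0 in every library of P0, P3 and P7.

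BBC3 and MCL1 stood out in late phase P15, and PMAIP1 and BMF in early phase P3. The 2 effectors among the 10 members, BAX and BAK1, hardly moved in any phase. Differences were tested with limma on all 13249 genes with Benjamini-Hochberg adjustment, and a gene was called at an adjusted p under 0.05. Between P3 and P0, 9 of the 10 members were called, 4 higher (31.4% of all tested genes were) and 5 lower (37.3%), where 68.7% of all tested genes were called in either direction. Between P7 and P0 it was again 9, with 5 higher (27.9% of all genes) and 4 lower (34.2%), beside 62.1% of all genes called. Between P15 and P0 it was 9, with 4 higher (45.3% of all genes) and 5 lower (40.9%), beside 86.2% of all genes called. With so many genes called, these counts say little about the family, and the sizes of the differences say more. A log2 difference of at least 1 was reached by 2 members in P3 (PMAIP1 and BMF), beside 4.46% of all genes, by 1 in P7 (BMF), beside 3.37%, and by 3 in P15 (BBC3, MCL1 and BMF), beside 23.6%. BMF passed this size narrowly in P7 and P15: with a pseudocount of 5 its differences were -0.75 and -0.73, and without replicate 4 of P15 the latter was -0.98. The libraries of the phases compared did not overlap for 9 members in P3 against P0, beside 60.1% of all genes, for 8 in P7 against P0, beside 52.6%, and for 8 in P15 against P0, beside 79.7%. The median absolute difference over the 10 members was 0.44 in P3, 0.34 in P7, against 0.48 in P15, and over all tested genes 0.23, 0.20 and 0.51. The 3 comparisons share the P0 libraries and are not independent of each other.

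**Figure D1:**
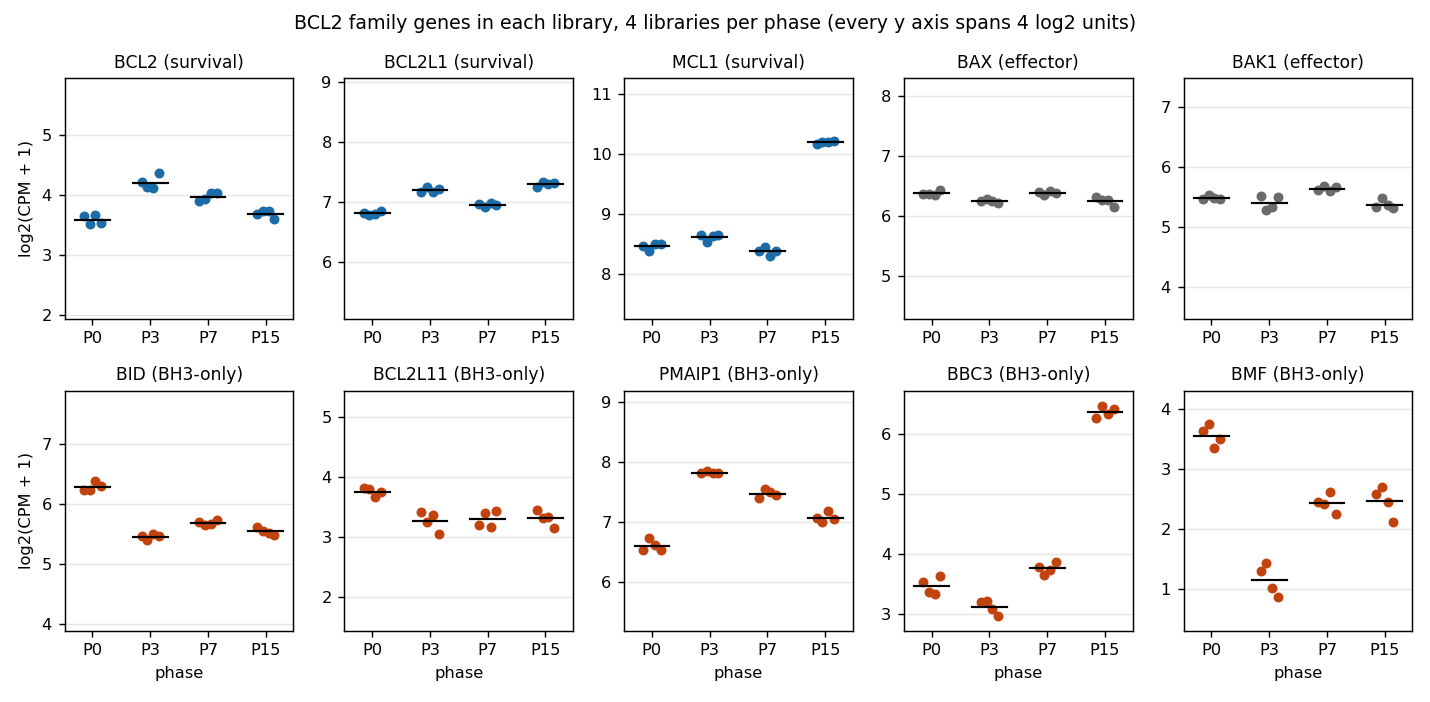
Level of each of the 10 BCL2 family genes in the 16 libraries, as log2(CPM + 1) on the y axis against phase on the x axis. Each point is 1 library, the black line is the mean of the 4 libraries of a phase, colours mark survival genes (blue), effectors (grey) and BH3-only genes (orange), and every y axis spans 4 log2 units. MCL1 and BBC3 lie apart in P15 (mean 10.2 and 6.37), BMF is lowest in P3 (mean 1.16) and PMAIP1 is highest there (mean 7.83).

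Among the survival genes, the sharpest change was in MCL1, whose product is short-lived and binds NOXA, BIM and PUMA. Its log2(CPM + 1) values, in the order of the replicate numbers, were 8.48, 8.39, 8.5 and 8.5 in P0, 8.66, 8.54, 8.64 and 8.66 in P3, 8.39, 8.46, 8.31 and 8.39 in P7, then 10.17, 10.21, 10.20 and 10.22 in P15. The 4 late libraries were far above the other 12, which lay between 8.31 and 8.66. The mean was 353 ± 12.7 CPM in P0, 394 ± 15.4 in P3, 334 ± 14.2 in P7, against 1180 ± 17.5 in P15 (SD, n = 4 each). MCL1 was thus 3.32-fold higher in P15 than in P0, a log2 difference of 1.73 (SE 0.03, limma adjusted p = 2.2e-23), and 4.85% of all tested genes rose by more. It was also higher in P3 than in P0, by 0.16 (SE 0.03, limma adjusted p = 0.00033), with no overlap of the libraries. In P7 it was 0.08 below P0 (limma adjusted p = 0.049), but the libraries overlapped and the call was lost (limma adjusted p of 0.052 to 0.2) in 12 of the 16 fits that left out 1 library. It held without replicate 2 of P0, P3 or P7 and without replicate 3 of P15. In bulk RNA, a change in the RNA of every cell and a change in the share of cells that carry it cannot be told apart, and the epithelial markers and the ribosomal protein share given above moved in the same P15 libraries. Their part in the P15 values of MCL1 and BBC3 was not tested.

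BCL2L1, which encodes the long-lived survival protein BCL-XL, had its highest values in P15 and P3. In P0 it read 6.82, 6.78, 6.79 and 6.84, in P3 7.17, 7.25, 7.16 and 7.21, in P7 6.96, 6.92, 6.98 and 6.94, and in P15 7.24, 7.33, 7.30 and 7.31. Every resistant library was above every P0 library, and P3 and P15 overlapped only through 1 library each. The rise over P0 was 0.39 in P3 (SE 0.03, limma adjusted p = 6.7e-11), 0.14 in P7 (SE 0.03, limma adjusted p = 0.0003) and 0.49 in P15 (SE 0.03, limma adjusted p = 2.3e-13), the last being 1.4-fold. Between P3 and P15 it differed by 0.10 (limma adjusted p = 0.0051), a call that was lost (adjusted p = 0.088) when every library was shifted to the same median.

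BCL2, the founding member of the family, was expressed at a low level and peaked in P3. Its values were 3.64, 3.52, 3.66 and 3.53 in P0, 4.21, 4.13, 4.12 and 4.36 in P3, 3.89, 3.93, 4.03 and 4.03 in P7, then 3.68, 3.73, 3.73 and 3.60 in P15. The P3 libraries were all above the P7 libraries, these were all above the P0 and P15 libraries, and P0 and P15 overlapped. BCL2 was 1.53-fold higher in P3 than in P0 (log2 difference 0.62, SE 0.06, limma adjusted p = 8.5e-09) and 1.3-fold higher in P7 (0.38, limma adjusted p = 1.5e-05). In P15 the difference from P0 was 0.10, with a 95% confidence interval of -0.03 to 0.23 (limma adjusted p = 0.16). BCL2 was 0.52 lower in P15 than in P3 (SE 0.06, limma adjusted p = 5.5e-08).

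The effectors had narrow ranges of phase means, 0.14 for BAX and 0.27 for BAK1. BAX read 6.36, 6.37, 6.34 and 6.43 in P0, 6.24, 6.28, 6.24 and 6.22 in P3, 6.39, 6.34, 6.42 and 6.38 in P7, then 6.31, 6.26, 6.26 and 6.15 in P15. All P3 and P15 libraries were below all P0 and P7 libraries by a small margin. Any part of separate sequencing runs in so small a margin was not tested. BAX fell by 0.13 from P0 to P3 (SE 0.04, limma adjusted p = 0.0027) and by the same amount from P0 to P15 (SE 0.04, limma adjusted p = 0.0018), which is 1.09-fold lower on this scale. For P7 against P0 the difference was 0.01, with an interval of -0.07 to 0.08 (limma adjusted p = 0.87).

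BAK1 read 5.46, 5.52, 5.47 and 5.46 in P0, 5.51, 5.27, 5.33 and 5.5 in P3, 5.61, 5.67, 5.59 and 5.66 in P7, then 5.32, 5.47, 5.36 and 5.31 in P15. The P7 libraries were above all 12 others, while the 3 other phases overlapped. BAK1 was 0.16 higher in P7 than in P0 (SE 0.05, limma adjusted p = 0.01). In P3 it differed from P0 by -0.08, with an interval of -0.18 to 0.03 (limma adjusted p = 0.19). In P15 it was 0.11 below P0 (limma adjusted p = 0.041), with overlapping libraries, and this call was lost (limma adjusted p of 0.052 to 0.11) without any 1 of the P0 libraries and without replicate 1, 3 or 4 of P15.

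**Figure D2:**
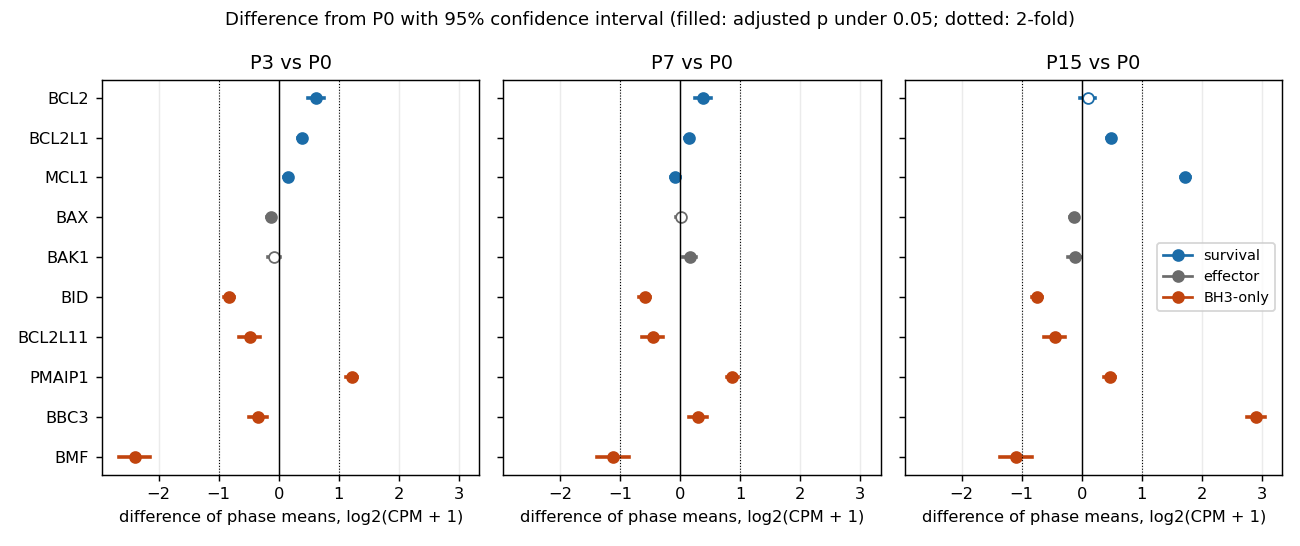
Difference of each phase mean from the P0 mean for the 10 genes, in log2(CPM + 1), with P3, P7 and P15 in separate panels. Points are limma estimates, bars their 95% confidence intervals, filled points passed an adjusted p under 0.05 and dotted lines mark a 2-fold difference. BBC3 (2.91) and MCL1 (1.73) lie beyond the right line in P15, PMAIP1 (1.22) in P3, and BMF lies beyond the left line in all 3 panels.

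The 5 BH3-only genes moved in different directions. BBC3, which encodes PUMA, a binder of every survival protein, read 3.53, 3.36, 3.33 and 3.63 in P0, 3.20, 3.22, 3.09 and 2.97 in P3, 3.78, 3.65, 3.74 and 3.87 in P7, then 6.26, 6.47, 6.34 and 6.41 in P15. None of the 4 phases overlapped, with P3 lowest, then P0, then P7, and P15 far above. The mean was 10.1 ± 1.1 CPM in P0, 7.71 ± 0.684 in P3, 12.6 ± 0.858 in P7, against 81.8 ± 5.18 in P15 (SD, n = 4 each). From P0 to P15 BBC3 rose 7.5-fold in CPM + 1, a log2 difference of 2.91 (SE 0.07, limma adjusted p = 1.8e-21). Of all tested genes, 1.49% rose by more. It was 0.34 lower in P3 than in P0 (SE 0.07, limma adjusted p = 0.00022) and 0.30 higher in P7 (SE 0.07, limma adjusted p = 0.0011). The step from P7 to P15 was 2.61 (SE 0.07, limma adjusted p = 1.5e-20). The upstream stretch of BBC3 shown above holds an AP-1 motif, an E-box and a CCAAT box, and their part in its course was not tested.

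PMAIP1, which encodes NOXA, a selective partner of MCL1, was highest in P3. It read 6.54, 6.74, 6.63 and 6.54 in P0, 7.82, 7.85, 7.82 and 7.83 in P3, 7.40, 7.56, 7.5 and 7.46 in P7, then 7.08, 7.00, 7.19 and 7.06 in P15. No phases overlapped, and the means stepped down from P3 through P7 and P15 to P0. The mean was 97.0 ± 6.56 CPM in P0 and 227 ± 2.24 CPM in P3 (SD, n = 4 each). The rise over P0 was 1.22 in P3 (2.33-fold, SE 0.04, limma adjusted p = 2.7e-17), 0.87 in P7 (SE 0.04, limma adjusted p = 2.4e-14) and 0.47 in P15 (SE 0.04, limma adjusted p = 4.4e-10). In P3 it was exceeded by 1.25% of all tested genes. Its fall from P7 to P15, by 0.40 (SE 0.04, limma adjusted p = 8.6e-09), stood beside the rise of MCL1 by 1.81 (SE 0.03, limma adjusted p = 8e-24) over the same interval.

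BMF, a BH3-only gene linked to loss of attachment, lost the most. Its values were 3.64, 3.75, 3.36 and 3.5 in P0, 1.31, 1.44, 1.03 and 0.87 in P3, 2.45, 2.43, 2.63 and 2.25 in P7, then 2.59, 2.71, 2.45 and 2.12 in P15. All P0 libraries were highest and all P3 libraries lowest, and the P7 and P15 libraries lay in between and overlapped each other. In CPM the means were 10.9 ± 1.38 in P0, 1.27 ± 0.403 in P3, 4.45 ± 0.587 in P7, against 4.59 ± 0.941 in P15 (SD, n = 4 each), and the P3 values rest on an estimated 28 to 69 counts per library. BMF fell by 2.40 from P0 to P3 (SE 0.13, limma adjusted p = 4.3e-14), and 0.166% of all tested genes fell by more. At so low a level the size depends on the pseudocount: with 0.1 in place of 1 the difference was -3.05 and with 5 it was -1.34. It was 1.12 below P0 in P7 (SE 0.13, limma adjusted p = 4.9e-08) and 1.10 below in P15 (SE 0.13, limma adjusted p = 2.2e-08), and P15 differed from P7 by 0.03, with an interval of -0.24 to 0.29 (limma adjusted p = 0.84). The rise from P3 to P7 was 1.28 (SE 0.13, limma adjusted p = 9.1e-09) and ran from 0.59 with a pseudocount of 5 to 1.78 with 0.1.

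BID, the BH3-only protein that caspase-8 cleaves, was lower in every resistant phase. It read 6.23, 6.22, 6.37 and 6.29 in P0, 5.46, 5.39, 5.49 and 5.46 in P3, 5.70, 5.64, 5.66 and 5.73 in P7, then 5.61, 5.54, 5.51 and 5.48 in P15. The P0 libraries lay above all 12 others. BID fell from P0 by 0.83 in P3 (1.77-fold lower, SE 0.04, limma adjusted p = 1.3e-14), by 0.59 in P7 (SE 0.04, limma adjusted p = 8.6e-12) and by 0.74 in P15 (SE 0.04, limma adjusted p = 1.8e-14). P15 differed from P3 by 0.08 (limma adjusted p = 0.057), and leaving out any of 3 libraries (replicate 3 of P0, replicate 3 of P3 or replicate 4 of P15) brought it under the threshold, at 0.047, 0.047 and 0.035.

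BCL2L11, which encodes BIM, an activator of BAX and BAK, was also lower after selection, and by about the same amount at each phase. It read 3.83, 3.80, 3.68 and 3.75 in P0, 3.43, 3.25, 3.38 and 3.06 in P3, 3.21, 3.40, 3.17 and 3.44 in P7, then 3.46, 3.33, 3.34 and 3.16 in P15. All P0 libraries were above all resistant ones, and the 3 resistant phases overlapped. The fall from P0 was 0.48 in P3 (SE 0.08, limma adjusted p = 2.1e-05), 0.46 in P7 (SE 0.08, limma adjusted p = 4.9e-05) and 0.44 in P15 (SE 0.08, limma adjusted p = 3.6e-05). Between resistant phases the differences were 0.02 to 0.04, and the interval for P15 against P3 ran from -0.13 to 0.22 (limma adjusted p = 0.64). The values of BCL2L11 are uncertain, because its exons share 727 bases with the long noncoding RNA MIR4435-2HG on the other strand, which had a mean of 28.28 CPM and was 0.65 higher in P15 than in P0, and the sources used here do not say whether counting used strand.

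Comparisons between the resistant phases show when the changes fell. From P3 to P7, 9 of the 10 members were called, 5 higher (30.3% of all genes) and 4 lower (28.0%), beside 58.2% of all genes called. The 3 survival genes and PMAIP1 were lower in P7 and 5 others (BAX, BAK1, BID, BBC3 and BMF) were higher. From P7 to P15, 8 were called, 3 higher (BCL2L1, MCL1 and BBC3) and 5 lower (BCL2, BAX, BAK1, BID and PMAIP1), beside 86.4% of all genes called, 46.3% higher and 40.1% lower. From P3 to P15, 6 were called, beside 87.2% of all genes, with BCL2L1, MCL1, BBC3 and BMF higher (46.1% of all genes) and BCL2 and PMAIP1 lower (41.1%). The 4 that were not called were BAX, BAK1, BID and BCL2L11. A log2 difference of at least 1 was reached by BMF alone from P3 to P7, beside 1.83% of all genes, by MCL1, BBC3 and BMF from P3 to P15, beside 27.1% (with a pseudocount of 5, BMF fell short in both, at 0.59 and 0.61), and by MCL1 and BBC3 from P7 to P15, beside 25.5%. Libraries did not overlap for 9 members from P3 to P7, beside 51.9% of all genes, for 5 from P3 to P15, beside 82.1%, and for 8 from P7 to P15, beside 80.8%.

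**Figure D3:**
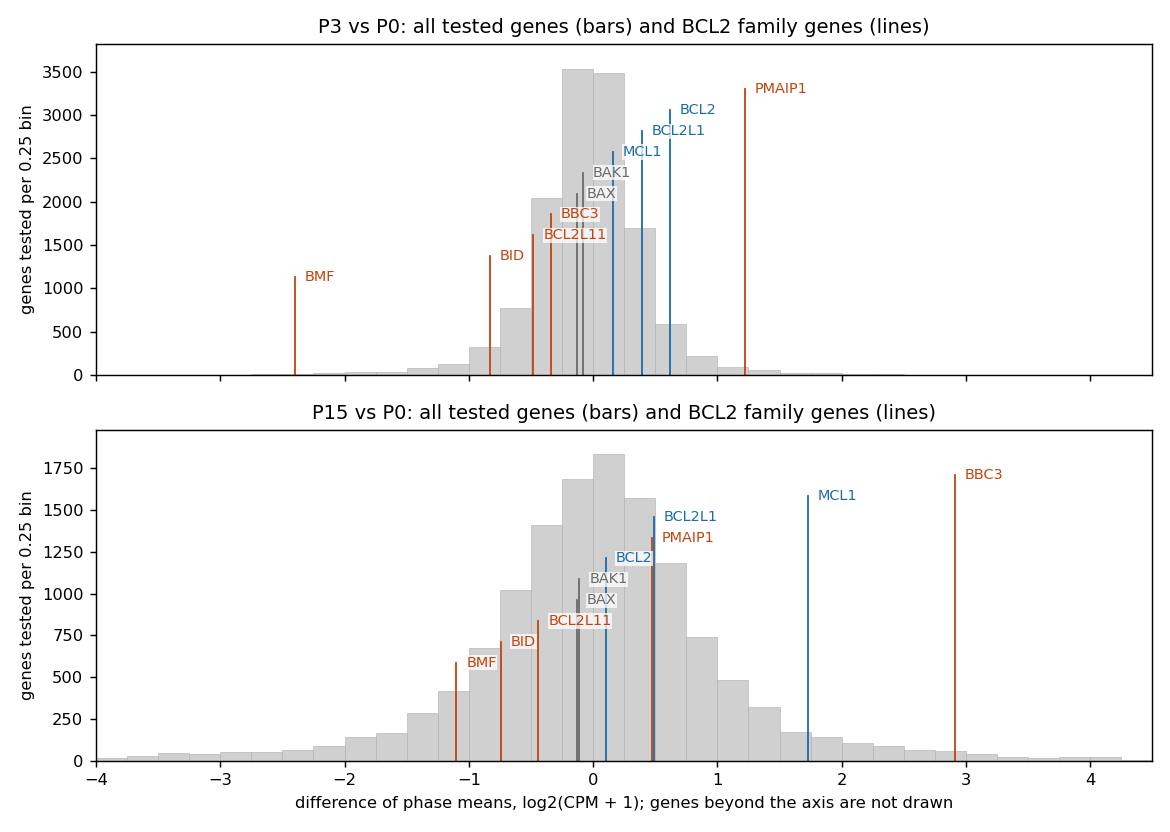
Distribution of the difference from P0 over the tested genes (grey bars, genes per 0.25 log2 units on the y axis) with the 10 BCL2 family genes as labelled lines, for P3 in the upper panel and P15 in the lower. The lines' heights only separate the labels. The distribution is wider in P15 (median absolute difference 0.51) than in P3 (0.23), BMF lies at the far left in P3 and BBC3 at the far right in P15.

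To compare levels between genes, CPM were divided by the length of the canonical transcript in kilobases (kb). In P0 the order was BAX (103 CPM per kb), MCL1 (89.4), PMAIP1 (51.1), BCL2L1 (43.1), BID (35.2), BAK1 (20.1), BBC3 (5.45), BCL2L11 (2.47), BMF (2.32) and BCL2 (1.6), and only BCL2L11 and BMF overlapped as neighbours. In P3 the first place went to PMAIP1 (119 CPM per kb), with MCL1 (99.8) and BAX (94.2) overlapping behind it, and BMF (0.27) came last. In P7 BAX led again (104 CPM per kb), and PMAIP1 and MCL1 overlapped behind it. In P15 MCL1 (298 CPM per kb) stood far above BAX (94.2), and BBC3 (44.3) had moved past BID (20.9) and BAK1 (18.6), which overlapped. BAX owes its place to a short canonical transcript of 795 bases: per kb of all its annotated exons, 2587 bases, it came behind 2 others in P0, with 31.7 CPM per kb after MCL1 (56.8) and PMAIP1 (44.4).

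In sums by role of these length-scaled levels, the sum of the 3 survival genes was highest in P15. The sum of the 5 BH3-only genes had stood above P0 since P3. In P3 this rise came from PMAIP1 alone, as the 4 other BH3-only genes were lower than in P0. The sums leave out the other family genes read below, such as BCL2A1, so they are not totals for a role. The survival sum was 129 to 137 CPM per kb in the P0 libraries, 155 to 162 in P3, 131 to 138 in P7, against 351 to 365 in P15. The BH3-only sum was 93.2 to 99.8 CPM per kb in P0, 144 to 146 in P3, 121 to 130 in P7, against 137 to 143 in P15. The sum of BAX and BAK1 had means of 124, 113, 126 and 113 CPM per kb in the 4 phases. The ratio of survival to BH3-only sums was 1.29 to 1.45 in P0, 1.06 to 1.12 in P3, 1.03 to 1.11 in P7, against 2.52 to 2.65 in P15, so that P3 and P7 overlapped and both lay below P0, and P15 lay above all. Whether the ratio was above or below 1 depended on the length used: per kb of all annotated exons, a scale added after the data were seen, it was 1.12 to 1.28 in P0, 0.819 to 0.866 in P3, 0.821 to 0.894 in P7, against 2.19 to 2.34 in P15. On both scales P3 and P7 overlapped and lay below P0, with P15 above all.

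The makeup of each sum shifted as well. MCL1 made up 66.7% of the survival sum in P0, 62.8% in P3, 62.9% in P7, against 82.7% in P15. Among the BH3-only genes summed, PMAIP1 went from 52.9% in P0 to 82.2% in P3, 74.1% in P7, against 51.0% in P15. BID made up 36.5% in P0 and 13.6%, 18.4% and 15.0% in the later phases, and per kb of all annotated exons 25.3% in P0 and 8.24%, 11.6% and 10.3% later. BBC3 held 5.66% in P0, 2.88% in P3, 5.41% in P7, against 31.9% in P15. On that scale PMAIP1 held 64.5%, 88.4%, 82.3% and 61.7%, and BBC3 4.61%, 2.06%, 4.0% and 25.8%, from P0 to P15. These shares are of transcripts and say nothing about the proteins.

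Genes that act with the 10 members were read from lists, of which up to 3 tested genes with the largest absolute difference between P15 and P0 are named. The other 13 family genes had 9 that were tested, and from P0 to P15 4 were higher and 4 lower, where 86.2% of all tested genes were called (45.3% higher and 40.9% lower). Their median difference was 0.08 beside 0.04 over all tested genes, and the same shares and median of all genes stand behind the P15 counts of the other lists. BCL2A1, another survival gene, had a mean of 1.46 ± 0.08 in P0, 2.97 ± 0.06 in P3, 1.42 ± 0.13 in P7, against 5.01 ± 0.06 log2(CPM + 1) in P15 (SD, n = 4 each), so that it was 3.54 higher in P15 (SE 0.08, limma adjusted p = 7.2e-23). BCL2L12 was 1.42 higher (SE 0.05, limma adjusted p = 3.6e-19), and BNIP3, a mitophagy receptor induced by low oxygen, was 1.44 lower in P15 than in P0 (SE 0.05, limma adjusted p = 3.1e-18) after it had been 1.53 higher in P3. In P3 these 9 moved mostly up: 8 were higher than in P0 (31.4% of all tested genes were) and none was lower (37.3%), with a median of 0.40 beside -0.02 over all tested genes. The 4 not tested were BCL2L10, HRK, BCL2L14 and BCL2L15.

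Downstream of the pores, the apoptosome and caspase list of 15 genes, all tested, had 4 higher and 10 lower in P15 than in P0 (45.3% and 40.9% of all genes), with a median of -0.42 beside 0.04. CASP10, an initiator caspase of death receptors, had means of 3.86 ± 0.16, 3.12 ± 0.08, 3.85 ± 0.06 and 0.17 ± 0.09 log2(CPM + 1) from P0 to P15 (SD, n = 4 each) and was 3.69 lower in P15 (SE 0.08, limma adjusted p = 1.3e-22). FADD, the adaptor that recruits it, was 1.43 lower (SE 0.10, limma adjusted p = 1.1e-12). Of 7 IAP genes and antagonists, which block caspases or relieve that block, 3 were higher and 2 lower in P15, beside 45.3% and 40.9% of all genes. BIRC3 was 3.06 higher (SE 0.05, limma adjusted p = 6.6e-26), BIRC2 0.75 higher (SE 0.04, limma adjusted p = 1.3e-14) and XIAP 0.85 lower (SE 0.03, limma adjusted p = 1.8e-17). Of 11 outer membrane partners, 5 were higher and 5 lower in P15, beside 45.3% and 40.9% of all genes, none by 1 or more, with MTCH2, a receptor for BID, 0.73 lower (SE 0.03, limma adjusted p = 2.9e-16), VDAC3 0.72 lower (SE 0.05, limma adjusted p = 2.9e-13) and TOMM20 0.38 higher (SE 0.04, limma adjusted p = 8.6e-10).

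Upstream of the BH3-only genes, 20 genes of p53 and its targets had 13 higher and 6 lower in P15 than in P0 (45.3% and 40.9% of all genes), with a median of 0.22 beside 0.04. SESN2 and GDF15, which also respond to nutrient and endoplasmic reticulum stress, were 2.61 higher (SE 0.06, limma adjusted p = 4.1e-22) and 2.26 higher (SE 0.07, limma adjusted p = 6.4e-20). PHLDA3, an inhibitor of AKT, was 4.33 lower (SE 0.06, limma adjusted p = 2.3e-26), so the target genes of the list did not move one way. Of 11 transcription factors known to act on BH3-only genes, 10 were tested, and 7 were higher and 3 lower in P15 (45.3% and 40.9% of all genes), with a median of 0.65 beside 0.04. EGR1, an immediate early factor, was 5.31 higher (SE 0.21, limma adjusted p = 1.6e-17), ATF3 4.08 higher (SE 0.10, limma adjusted p = 1.6e-21) and DDIT3, which encodes the stress factor CHOP, 2.6 higher (SE 0.07, limma adjusted p = 2.1e-20). Of the 11 genes that control turnover or sequestration of MCL1 and BH3-only proteins, 10 were found and tested, and 3 were higher and 7 lower in P15 (45.3% and 40.9% of all genes), with a median of -0.30 beside 0.04. DYNLL1 and DYNLL2, the dynein light chains that hold BIM and BMF, were 0.57 and 0.48 lower (SE 0.04 each, limma adjusted p = 5.6e-12 and 3.2e-11). HUWE1, a ubiquitin ligase of MCL1, was 0.39 higher (SE 0.12, limma adjusted p = 0.0047), but its libraries overlapped. They lay at 8.2 to 8.98 log2(CPM + 1) in P0 and at 8.97 to 9.33 in P15.

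**Figure D4:**
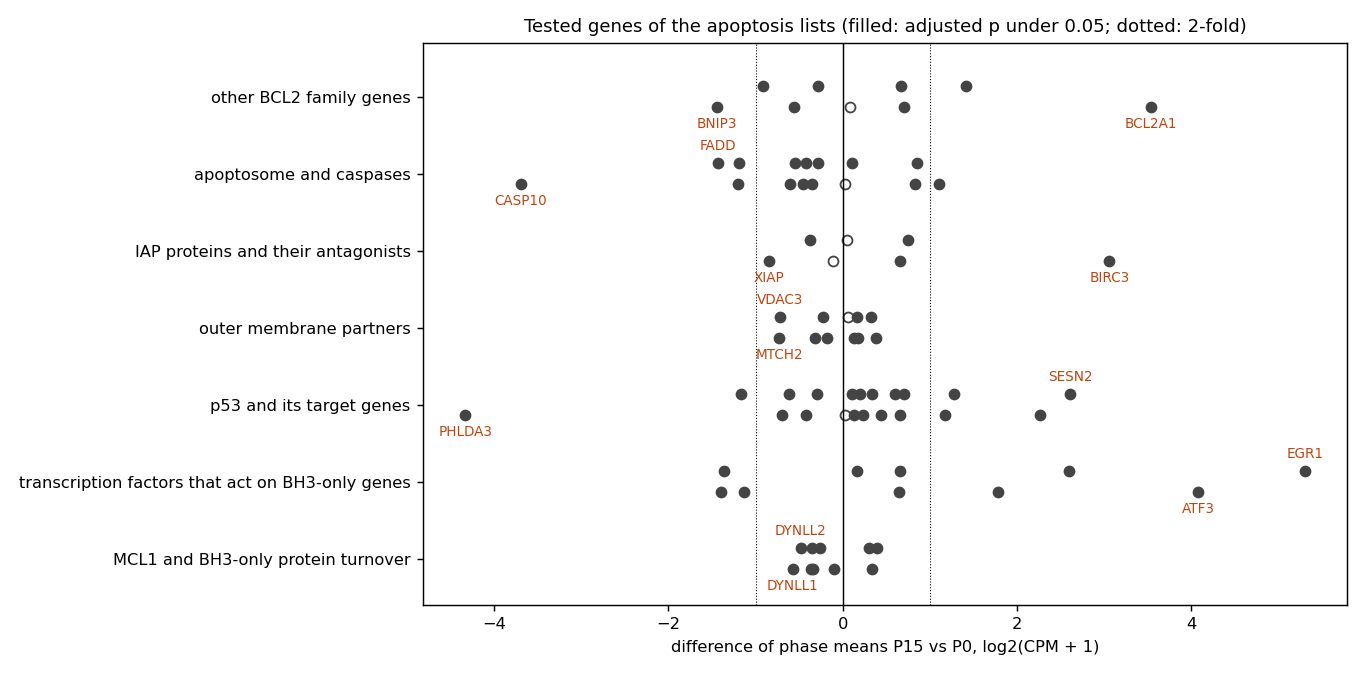
Difference between P15 and P0 in log2(CPM + 1) (x axis) for every tested gene of 7 lists of the apoptosis pathway (y axis), with the 2 largest absolute differences of each list labelled. Each point is a gene, filled where the adjusted p was under 0.05, and dotted lines mark a 2-fold difference. The caspase list lies mostly left of 0 and the transcription factor list reaches 5.31.

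The genes were also read in their places in the genome (GRCh38, GENCODE 44). BCL2 (chr18:63123346-63320128, minus strand) and PMAIP1 (chr18:59899996-59904305, plus strand) lie on the long arm of the same chromosome and both were highest in P3, with P7 next. PMAIP1 was higher in P15 than in P0, whereas BCL2 in these 2 phases overlapped and its difference of 0.10 was not called (limma adjusted p = 0.16). Beside BCL2, PHLPP1 differed from P0 by -0.057 in P3 and -0.147 in P7, and KDSR by 0.393 and 0.598. Beside PMAIP1, CCBE1 differed from P0 by 0.572 in P3 and -0.678 in P7, and RNF152 by -0.058 and 0.297. Any part of their place in the courses of BCL2 and PMAIP1 was not tested. BBC3 (chr19:47220822-47232766, minus strand) and BAX (chr19:48954815-48961798, plus strand) also share a chromosome. Beside BBC3, the nearest tested genes were SAE1, 0.41 higher in P15 than in P0, and CCDC9, 1.24 higher. Beside MCL1 (chr1:150560895-150579738, minus strand), ECM1 was 0.66 lower and ENSA differed by 0.045 (limma adjusted p = 0.13). Beside BMF (chr15:40087890-40108892, minus strand), SRP14 was 0.66 lower and BUB1B 0.22 lower in P15. MCL1 shares 43 exon bases with ADAMTSL4 on the other strand, which had a mean of 3.45 CPM and was 2.47 higher in P15, against 1180 CPM for MCL1 there. It also shares 328 exon bases with the noncoding ADAMTSL4-AS1 on its own strand, which strand could not separate and which lay under the minimum of 1 CPM for a test. BCL2L1 shares 1735 exon bases with the noncoding ABALON on the other strand, which had a mean of 4.40 CPM. BMF shares 461 exon bases with the noncoding BMF-AS1 on the other strand. That symbol was not found among the deposited genes, so its level and its part in the BMF values are unknown.

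For the member with the widest range of phase means in each role, the 3 genes outside the family with the most similar course were sought, by the mean absolute difference of centred log2 values over the 16 libraries. For MCL1 these were ATXN2 (0.06), CNTRL (0.08) and GNAL (0.08). ATXN2 had means of 5.18, 5.42, 5.15 and 7.04 log2(CPM + 1) from P0 to P15. BAK1 was matched by RPS6KC1 (0.04), MAPK14 (0.05) and PRKD3 (0.05), in a range of phase means of only 0.27. For BBC3 they were SLC29A4 (0.13), LRFN1 (0.16) and WHRN (0.17), with SLC29A4 at 0.70 log2(CPM + 1) in P0 and 3.60 in P15.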

How the data were processed

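RNA from 16 libraries was sequenced by the authors as paired-end reads, aligned with STAR 2.6.1a to GRCh38 and counted with featureCounts. The annotation release, strand setting and treatment of reads that map more than once are not given in the sources used here. The deposited values are log2(CPM + 1) with 2 decimals for 39007 gene symbols. The quantile normalization and median centring that the methods also name were not found in the deposited log2 values, whose CPM sum to 999894 to 1000095 per library. Groups were taken from the labelled phase. The spacing of the lowest values gave each library's total count, 33.8 to 50.0 M, so counts and lengths only rescale these values.

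limma 3.58.1 in R 4.3.3 was fitted with 1 coefficient per phase over all 16 libraries and a trend in the variance prior, with Benjamini-Hochberg adjustment over 13249 genes of mean CPM above 1. All 10 members passed this filter, so the permutation test planned for members under it gave no result. Scripts were tested on simulated data and used Python 3.11.15 with numpy 2.4.6, pandas 2.3.3, scipy 1.17.1 and matplotlib 3.10.9. Exon overlaps and lengths came from GENCODE 44 and upstream sequences from RefSeq. Every member was named, and of each other list the 3 tested genes with the largest absolute difference between P15 and P0. Of the genes this rule names, 1 is not reported here. The members and lists were chosen with earlier results of these data known. Alternatives covered the filter, pseudocount, normalization, replicate block, variance trend, libraries fitted, size of the difference and each library left out.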

Additional observations from a re-analysis of the deposited data

Results flagged for a closer look

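In 6 groups of 4 libraries, 1 library stood apart from the other 3 by more than Dixon's 95% critical value for the gap as a share of the range. In all 124 groups of members and named list genes were checked, and chance flags about 1 in 20, which is 6 groups here. Of the members, MCL1 in P3 had replicate 2 at 8.54 beside 8.64 to 8.66 in the others (gap 0.83 of the range), and BAK1 in P0 had replicate 2 at 5.52 beside 5.46 to 5.47 (0.83). Of the list genes, ATF3 in P3 had replicate 4 at 3.21 beside 3.48 to 3.52 (0.87), EGR1 in P7 had replicate 3 at 3.82 beside 3.17 to 3.25 (0.88), HUWE1 in P15 had replicate 3 at 9.33 beside 8.97 to 9.01 (0.89), and MTCH2 in P15 had replicate 1 at 6.79 beside 6.71 to 6.72 (0.88). All values are log2(CPM + 1). Leaving out single libraries kept the number of members called for P3 against P0 at 9.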

How the results depend on the processing

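The number of members called under an adjusted p of 0.05 stayed within 1.5 times its value in every alternative but 1. Requiring an absolute log2 difference of at least 1 left 2 members for P3 against P0, 1 for P7 against P0, 3 for P15 against P0, 1 for P7 against P3, 3 for P15 against P3 and 2 for P15 against P7. With 1 library left out the counts ran from 9 to 9, 8 to 9, 8 to 9, 9 to 9, 6 to 7 and 8 to 8 in the same order. Over 27 settings no member changed direction in a way that turned a call: of the single-gene results 1544 kept their side of the threshold, 67 lost it (38 of them to the rule on size) and 3 gained it. The calls that were lost most often were MCL1 in P7 against P0, with an adjusted p of 0.13 without a filter, 0.13 with libraries shifted to 1 median, 0.095 without the variance trend and 0.072 with the 2 phases alone, and BAK1 in P15 against P0, with 0.081 without a filter and 0.057 without the trend. Replicate numbers gave no clear sign of pairing: deviations of same-numbered libraries correlated at -0.15 to 0.22, and 1 of 24 pairs was over 0.1. Of 16 libraries, 5 correlated best with their own number. The numbers in the sample titles differ from these for some libraries, and gave -0.12 to 0.22 and 6 of 16. Such a check cannot exclude a pairing. With a block by replicate number, 8 members were called in P7 against P0 and 8 in P15 against P0. MCL1 in P7 then had a limma adjusted p of 0.061 and BAK1 in P15 of 0.052. BMF could not be tested where 1 CPM was required in all libraries. The depth leaves BMF in P3 at 28 to 69 counts per library, so its size there is the least certain of the 10.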
